A study of Mus musculus with 6 samples.

Results

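The 9 genes described here, Rspo3, Lgr5, Rnf43, Znrf3, Axin2, Nkd1, Tbx3, Rhbg and Oat, are components, feedback genes and targets of Wnt/β-catenin signalling around the central vein of the liver. They were taken from the count table by their symbols, and all 9 were found among the 20107 genes listed there. RNA came from the livers of 6 wild-type male C57BL/6N mice from Envigo, 16 weeks old, which were littermates. HFHC mice (replicates 1, 2 and 3) had eaten a high-fat, high-calorie food with fructose and had drunk a high-fructose solution for 8 weeks, starting at 8 weeks of age. Chow mice (replicates 7, 8 and 9) stayed on chow up to the same age. The comparison asks how the levels of these genes in the liver differ with the diet.

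The liver lobule is zoned, and Wnt signals made by endothelial cells of the central vein keep β-catenin active in the hepatocytes beside it. R-spondin 3, the product of Rspo3, binds receptors of the Lgr family and removes the ubiquitin ligases Rnf43 and Znrf3, which otherwise clear Wnt receptors from the cell surface. Active β-catenin then switches on ammonia-handling and drug-metabolising genes next to the vein, together with feedback genes such as Axin2 and Nkd1. Bulk RNA holds no position in the lobule, so the zone of each gene is background here and was not measured. In bulk RNA, fewer cells of a type and less RNA per cell cannot be told apart.

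The HFHC libraries held 30096409 to 30871297 counts and the Chow libraries 26767416 to 27339613, so depth differed with the diet. Levels are given as CPM, counts scaled to a common library size with TMM factors. The 10 hepatocyte markers examined summed to 93633 to 97267 CPM in HFHC livers and 84526 to 104485 CPM in Chow livers, and none of them was at 0 in any library. On the first principal component (49.7% of the variance) the diets lay apart, and on the second (16.2%) Chow replicate 8 lay away from the other 5 libraries.

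None of the 9 genes passed an adjusted p of 0.05, from the quasi-likelihood F test of edgeR with adjustment by Benjamini and Hochberg over all 14896 genes tested. Of all tested genes 6.67% passed, 3.38% higher and 3.3% lower in HFHC livers. At an unadjusted p under 0.05 there were 3 of the 9, or 33.3%, against 22.2% of all tested genes. In 4 of the 9 genes (44.4%) the livers of the diets did not overlap, which was so for 27.8% of all tested genes. Oat, Znrf3 and Rspo3 were lower in each HFHC liver (3 of 9, against 14.3% of all tested genes), and Nkd1 was higher in each (1 of 9, against 13.5%). The median log2 fold change of HFHC over Chow was -0.17 over the 9 genes and -0.0033 over all tested genes, and 3 of the 9 were above 0, against 49.5% of all tested genes. All 9 genes passed the count filter, with 98 to 33325 counts per library.

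**Figure D1:**
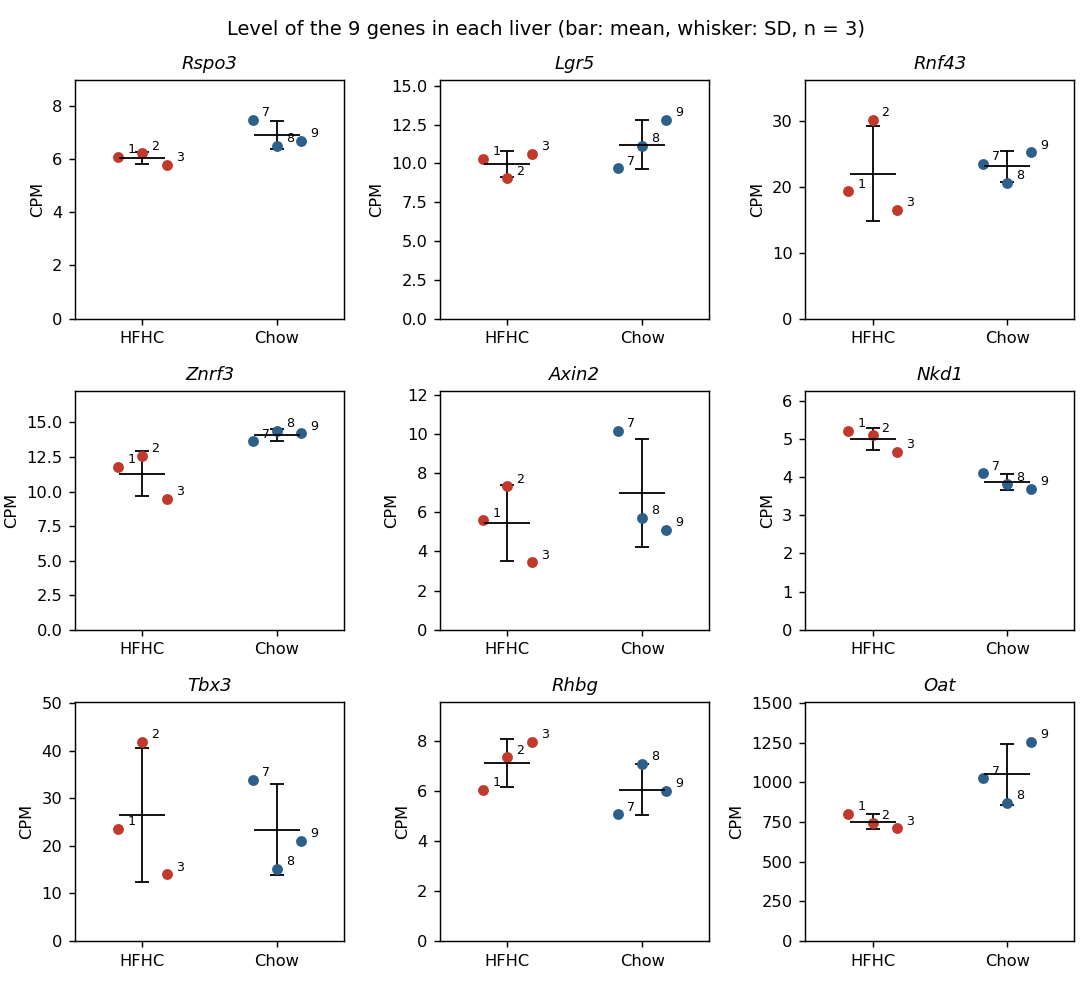
CPM of each of the 9 genes (vertical axes start at 0) in the 3 HFHC livers (red) and the 3 Chow livers (blue), numbered by replicate, with the mean and SD of each diet. The diets are apart in Oat, Znrf3, Rspo3 and Nkd1, while Tbx3, Axin2 and Rnf43 spread widely within a diet.

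Promoter windows from RefSeq (GRCm38.p6, 250 bases before to 50 after a transcript start) were found for 4 of the 9 genes, Axin2, Nkd1, Oat and Rnf43, with 5 windows among them. The sequences below are those of Axin2, a widely used readout of β-catenin activity, and of Nkd1 and Oat, the genes with the highest and the lowest log2 fold change. They are written 5′ to 3′ on the strand of the gene, and capitals would mark a match to the TCF/LEF core, through which β-catenin binds DNA. The windows are chr11:108920099-108920398 on the plus strand for Axin2, chr8:88527383-88527682 on the plus strand for Nkd1 and chr7:132576349-132576648 on the minus strand for Oat. That of Nkd1 starts inside the gene as GENCODE annotates it.
Axin2: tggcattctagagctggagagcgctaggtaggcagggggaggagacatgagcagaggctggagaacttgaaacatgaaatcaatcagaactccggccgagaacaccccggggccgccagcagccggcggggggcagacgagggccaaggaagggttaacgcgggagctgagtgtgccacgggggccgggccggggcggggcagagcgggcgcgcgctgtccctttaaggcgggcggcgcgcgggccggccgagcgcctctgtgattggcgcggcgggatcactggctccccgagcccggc
Nkd1: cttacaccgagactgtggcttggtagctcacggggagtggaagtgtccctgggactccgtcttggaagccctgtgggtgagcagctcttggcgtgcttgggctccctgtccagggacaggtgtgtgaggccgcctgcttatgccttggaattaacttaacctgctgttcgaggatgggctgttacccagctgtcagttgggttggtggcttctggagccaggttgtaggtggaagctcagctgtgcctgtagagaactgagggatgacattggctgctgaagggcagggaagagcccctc
Oat: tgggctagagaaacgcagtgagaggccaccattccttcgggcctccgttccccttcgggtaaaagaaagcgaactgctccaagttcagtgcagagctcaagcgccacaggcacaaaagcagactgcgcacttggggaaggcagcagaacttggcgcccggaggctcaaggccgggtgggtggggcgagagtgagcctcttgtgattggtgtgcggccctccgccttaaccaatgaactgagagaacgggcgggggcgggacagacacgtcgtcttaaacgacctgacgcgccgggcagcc
The core was searched on both strands as 4 heptamers, and none of the 5 windows held a match, so no letter is in capitals. Among all 32851 windows of the table, CTTTGAA was found in 5.14%, the heptamer CTTTGAT in 3.73%, the heptamer CTTTGTA in 3.63% and the heptamer CTTTGTT in 5.85%, with 16.9% holding at least 1 of them. GC content was 70% in the Axin2 window, 58.3% in that of Nkd1 and 61.7% in that of Oat, with 31, 6 and 22 CG pairs in this order. A window without these letters says nothing about sites elsewhere in the gene.

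Rspo3 (chromosome 10, 29452416 to 29535867, minus strand, mm10) encodes the secreted amplifier of Wnt signals. It stood at 6.08, 6.21 and 5.77 CPM in HFHC livers, against 7.47, 6.49 and 6.67 CPM in Chow livers. Each HFHC liver was below each Chow liver, and the gap between the nearest livers was small. The log2 fold change was -0.19 ± 0.11 (SE, adjusted p = 0.36), with a 95% interval from -0.45 to 0.06. A noncoding gene on the opposite strand, Gm48159, covers 13.1% of the exonic bases of Rspo3, and whether the counting used strand is not given in the sources used here. In liver, Rspo3 is known from endothelial and stellate cells, and markers of both were measured beside it. The 16 endothelial markers summed to 391 to 430 CPM in HFHC livers and 418 to 434 CPM in Chow livers (exact two-sided permutation p = 0.6, where 0.1 is the smallest that 3 against 3 can give). The 12 stellate markers summed to 387 to 417 CPM in HFHC livers and 382 to 436 CPM in Chow livers (exact p = 1). No marker of either list was at 0 in any library, and 0 of these markers passed with edgeR, DESeq2 or weighted limma-voom, or had an unadjusted p under 0.05 in edgeR. Like Rspo3, 4 of the 16 endothelial markers were lower in each HFHC liver, and none was higher in each. Of the 16, 11 had a log2 fold change below 0. Among the 12 stellate markers 1 was lower in each HFHC liver, none was higher in each, and 5 were below 0. Over all tested genes 14.3% were lower and 13.5% higher in each HFHC liver. The part of endothelial and stellate cells in the level of Rspo3 was not tested.

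Lgr5 (chromosome 10, 115450311 to 115587780, minus strand) encodes a receptor for R-spondins and marks hepatocytes at the central vein. Its levels were 10.3, 9.03 and 10.6 CPM in HFHC livers, against 9.68, 11.1 and 12.8 CPM in Chow livers. The diets overlapped, with Chow replicate 7 below HFHC replicates 1 and 3. This gave a log2 fold change of -0.17 ± 0.13 (adjusted p = 0.486, 95% interval -0.45 to 0.11).

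Rnf43 (chromosome 11, 87662722 to 87735539, plus strand) and Znrf3 (chromosome 11, 5276324 to 5444847, minus strand) encode related transmembrane ubiquitin ligases that mark Frizzled receptors for removal. Rnf43 stood at 19.3, 30.2 and 16.5 CPM in HFHC livers, against 23.5, 20.6 and 25.2 CPM in Chow livers. HFHC replicates held both the highest and the lowest of the 6 values. Its log2 fold change was -0.07 ± 0.20 (adjusted p = 0.873, 95% interval -0.51 to 0.37), and it turned to 0.10 without HFHC replicate 3 and to 0.02 without HFHC replicate 1. Znrf3 stood at 11.8, 12.6 and 9.46 CPM in HFHC livers, against 13.6, 14.4 and 14.2 CPM in Chow livers. The Chow livers lay close together and above each HFHC liver, of which replicate 3 was the lowest. The log2 fold change of Znrf3 was -0.32 ± 0.12 (adjusted p = 0.146, 95% interval -0.58 to -0.05). Whether the pair differed in its response was not tested, and their intervals overlap.

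Axin2 (chromosome 11, 108920349 to 108950783, plus strand) encodes a scaffold of the complex that degrades β-catenin, and is itself switched on by β-catenin. It stood at 5.60, 7.33 and 3.45 CPM in HFHC livers, against 10.2, 5.73 and 5.09 CPM in Chow livers. Chow replicate 7 was the highest liver and HFHC replicate 3 the lowest, and the other 4 were mixed. For Axin2 the log2 fold change was -0.35 ± 0.30 (adjusted p = 0.554), with a 95% interval from -1.04 to 0.33, and it stood at 0.01 without Chow replicate 7.

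Nkd1 (chromosome 8, 88521354 to 88594884, plus strand) encodes an inhibitor that binds Dishevelled, and like Axin2 it is both a target and a brake of the pathway. It stood at 5.22, 5.09 and 4.66 CPM in HFHC livers, against 4.10, 3.81 and 3.70 CPM in Chow livers. These values rest on 164, 159 and 139 counts in HFHC livers and 108, 105 and 98 counts in Chow livers. Every HFHC liver was above every Chow liver, and the livers of 1 diet lay close together. For Nkd1 the log2 fold change was 0.37 ± 0.13 (adjusted p = 0.124, 95% interval 0.08 to 0.65), and it ran from 0.34 to 0.42 when each library was left out in turn. Axin2 and Nkd1 thus had log2 fold changes of opposite sign, a difference that was not tested.

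Tbx3 (chromosome 5, 119670669 to 119684724, plus strand) encodes a T-box transcription factor that β-catenin induces in liver. It stood at 23.5, 41.9 and 14.0 CPM in HFHC livers, against 33.9, 15.2 and 21.1 CPM in Chow livers. The highest and the lowest of the 6 values were both HFHC livers, and neither diet was set apart. Its log2 fold change of 0.18 ± 0.37 (adjusted p = 0.830) had the widest interval of the 9 genes, from -0.66 to 1.02, and it turned to -0.31 without HFHC replicate 2 and to -0.05 without Chow replicate 8.

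Among the metabolic targets, Rhbg (chromosome 3, 88242874 to 88254709, minus strand) encodes an ammonium transporter of pericentral hepatocytes. It stood at 6.04, 7.33 and 7.95 CPM in HFHC livers, against 5.05, 7.07 and 6.00 CPM in Chow livers. The diets overlapped through Chow replicate 8. Its log2 fold change was 0.23 ± 0.16 (adjusted p = 0.429, 95% interval -0.12 to 0.58). Of the exonic bases of Rhbg, 61.4% are shared with Gm38392 on the same strand, and the table holds fractional values for it in each of the 6 libraries, which leaves its level uncertain.

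Oat (chromosome 7, 132557478 to 132576398, minus strand) encodes ornithine aminotransferase, the mitochondrial enzyme that turns ornithine towards glutamate, which glutamine synthetase can use in the same cells. It stood at 803, 746 and 711 CPM in HFHC livers, against 1026, 873 and 1257 CPM in Chow livers. Each HFHC liver was below each Chow liver, and Chow replicate 9 stood well above the other 5. The log2 fold change was -0.48 ± 0.13 (adjusted p = 0.0563), which is 0.716 of the Chow level, with a 95% interval from -0.77 to -0.19 on the log2 scale. Oat passed with DESeq2 (adjusted p = 0.00367), weighted limma-voom (0.0314), robust quasi-likelihood (0.0408), the trend on GC content and length taken out (0.0458) or Chow replicate 8 left out (0.0152). Without each other library in turn its edgeR adjusted p was between 0.101 and 0.158.

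**Figure D2:**
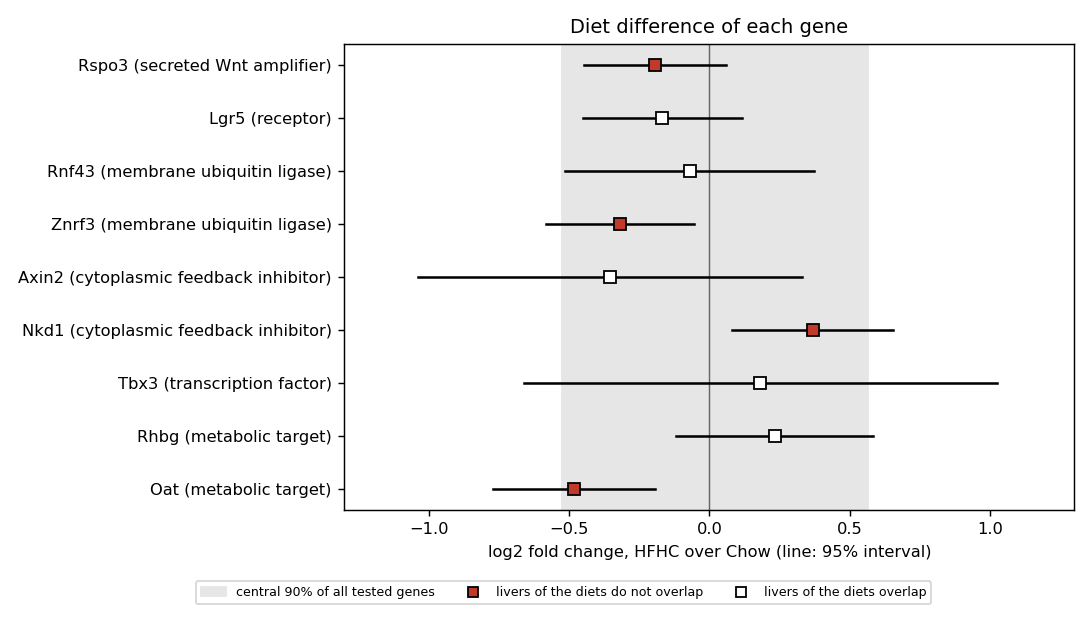
Log2 fold change of HFHC over Chow for each gene (square) with its 95% interval (line), filled where the livers of the diets do not overlap, and a grey band from -0.52 to 0.57 that holds the central 90% of all tested genes. The intervals of Oat, Znrf3 and Nkd1 leave out 0, those of Axin2 and Tbx3 are the widest, and all 9 estimates lie inside the band.

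The 9 genes varied to different degrees between livers of the same diet. The coefficient of variation of Tbx3 was 53.5% in HFHC livers and 41.0% in Chow livers, where counting error alone would give 3.49% and 4.0%. That of Axin2 was 35.6% and 39.5% in HFHC and Chow livers (counting error 7.68% and 7.31%), and that of Rnf43 was 32.9% in HFHC livers and 10.04% in Chow livers (counting error 3.83% and 4.02%). Rspo3 and Nkd1 were at the other end. Their coefficients of variation were 3.78% and 7.59% for Rspo3 in HFHC and Chow livers and 5.84% and 5.37% for Nkd1, of the order of their counting error of 7.34% to 9.82%.

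Ranked by the SD of log2 CPM within a diet over all 14896 tested genes, Tbx3 lay at percentile 99.4, Axin2 at 98.4 and Rnf43 at 93.4. Rhbg (74.3), Oat (71.1), Lgr5 (57.7) and Znrf3 (52.4) were in the upper part and middle of the range, and Rspo3 (15.7) and Nkd1 (12.5) were low. In HFHC livers Tbx3, Axin2, Rnf43, Znrf3 and Rspo3 had the same order, with replicate 2 highest and replicate 3 lowest. Lgr5, Nkd1, Rhbg and Oat had other orders, and the share of all tested genes with this order was not counted. Highest over lowest came to 2.99-fold for Tbx3, 2.12-fold for Axin2, 1.83-fold for Rnf43, 1.33-fold for Znrf3 and 1.08-fold for Rspo3. The HFHC spread of Rspo3 (3.78%) was below its counting error (7.34%), so its order cannot be told from counting error. In Chow livers replicate 7 was the highest for Tbx3, Axin2, Nkd1 and Rspo3, and replicate 9 for Rnf43, Lgr5 and Oat.

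**Figure D3:**
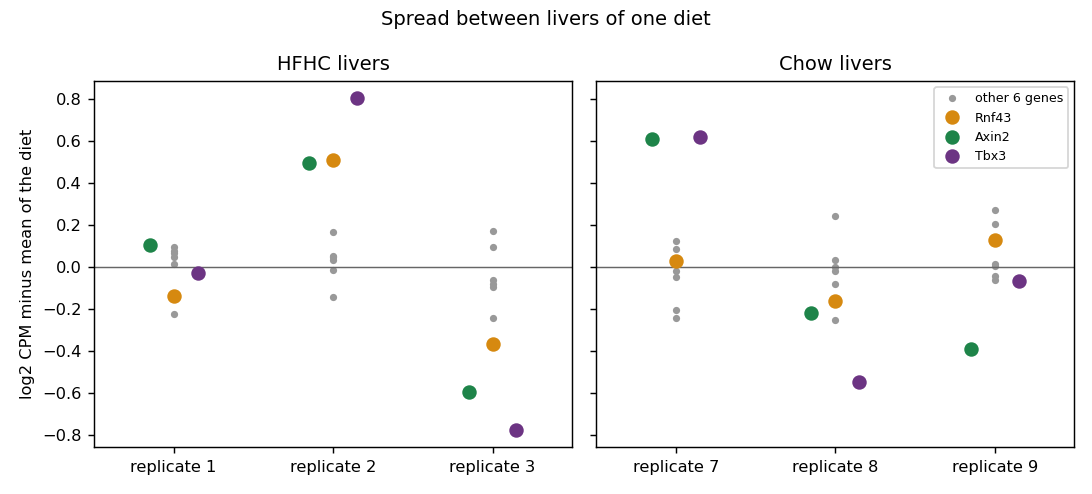
Log2 CPM of each gene minus its mean in the diet (vertical axis) for the 3 HFHC livers (left) and the 3 Chow livers (right), with Tbx3, Axin2 and Rnf43 in colour and the other 6 genes in grey. All 3 coloured genes are high in HFHC replicate 2 and low in HFHC replicate 3, while in Chow replicate 7 Tbx3 and Axin2 are high and Rnf43 is near its mean.

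Per kilobase of exon, a scale on which genes can be set side by side, Oat was far above the others at 319 ± 19.7 CPM per kilobase in HFHC livers and 446 ± 81.8 in Chow livers (SD, n = 3 each, as below). In CPM per kilobase, Tbx3 had a level of 4.0 ± 2.14 in HFHC livers and 3.53 ± 1.45 in Chow livers. Rhbg had a level of 3.67 ± 0.502 in HFHC livers and 3.12 ± 0.524 in Chow livers, and Rnf43 of 3.35 ± 1.10 and 3.52 ± 0.354. With these lengths the 3 neighbours did not differ beyond their spread. Rspo3 followed with 1.95 ± 0.0736 in HFHC livers and 2.23 ± 0.169 in Chow livers, and Znrf3 with 1.43 ± 0.206 and 1.78 ± 0.0516. The lowest levels, which overlapped among themselves in at least 1 diet, were those of Nkd1 (1.09 ± 0.0639 in HFHC and 0.848 ± 0.0455 in Chow livers), Axin2 (0.992 ± 0.353 and 1.27 ± 0.502) and Lgr5 (0.972 ± 0.0819 and 1.09 ± 0.153). The places of Lgr5, Rnf43 and Znrf3 depend on the length used. By its longest transcript Rnf43 stood at 5.10 ± 1.68 in HFHC livers and 5.36 ± 0.538 in Chow livers, where each Chow liver was above the highest value of Rhbg, whose length is the same by either measure. By its longest transcript Lgr5 stood at 2.08 ± 0.175 in HFHC livers and 2.34 ± 0.328 in Chow livers, near Rspo3. Znrf3 stood at 1.79 ± 0.258 and 2.23 ± 0.0645 by this length, and overlapped Rspo3 in both diets.

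Other genes of the pathway were read from lists of Wnt ligands, receptors, signalling core and antagonists. Of 22 genes for ligands, R-spondins and Wnt secretion, 8 were tested and none passed, also at an unadjusted p under 0.05 and with DESeq2 or weighted limma-voom. Wnt2 and Wnt9b, the ligands of central vein and sinusoidal endothelium, were low. Wnt2 stood at 3.37, 2.4 and 2.58 CPM in HFHC livers, against 3.11, 1.60 and 3.47 CPM in Chow livers, and Wnt9b at 1.02, 0.801 and 1.01 CPM against 1.14, 0.834 and 0.792 CPM. Neither ligand set the diets apart (log2 fold changes 0.03 ± 0.27 and 0.03 ± 0.25), and both changed sign under some of the alternatives tried. The smallest p of the list was that of Wnt5a (-0.64 ± 0.32, adjusted p = 0.283).

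Of the 11 tested receptor genes 1 fell and none rose, beside 3.3% of all tested genes that passed as lower. It was Lgr4, the R-spondin receptor that hepatocytes carry across the lobule, at 58.6, 64.0 and 65.5 CPM in HFHC livers, against 87.3, 79.3 and 91.1 CPM in Chow livers. Each HFHC liver was below each Chow liver, with a log2 fold change of -0.45 ± 0.08 (adjusted p = 0.0152). The call was lost without HFHC replicate 1 (adjusted p = 0.0641), Chow replicate 7 (0.0687) or Chow replicate 9 (0.0628). The co-receptor gene Lrp6, named after its values were seen, had a log2 fold change of -0.31 ± 0.08 (adjusted p = 0.0563), and -0.14 with the trend on GC content and length taken out. Fzd1 (0.35 ± 0.14, adjusted p = 0.171) and Fzd8 (0.45 ± 0.17, adjusted p = 0.163), Frizzled receptor genes also named after their values were seen, were higher in each HFHC liver.

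Of the 19 tested genes of the signalling core 1 fell, none rose, and the median log2 fold change was -0.10. The share that fell is near the 3.3% of all tested genes that passed as lower. The log2 fold change was below 0 in 18 of the 19, whereas 49.5% of all tested genes were above 0. Only 4 of the 19 had an unadjusted p under 0.05 in edgeR, against 22.2% of all tested genes. In 5 of the 19 each HFHC liver was below each Chow liver, against 14.3% of all tested genes, and in none was each above. β-Catenin itself, Ctnnb1, stood at 241, 245 and 262 CPM in HFHC livers, against 262, 249 and 262 CPM in Chow livers (-0.05 ± 0.08, adjusted p = 0.778, 95% interval -0.22 to 0.12). Apc, a scaffold of the complex that degrades β-catenin, stood at 35.6, 39.2 and 34.2 CPM in HFHC livers, against 47.0, 47.0 and 48.1 CPM in Chow livers, and it fell (-0.38 ± 0.08, adjusted p = 0.0218). Its longest transcript has 12811 bases, and the trend of the libraries on GC content and length came to -0.223 (log2, HFHC minus Chow) for such a transcript. With that trend taken out Apc stood at -0.16 (adjusted p = 0.155), and its call was also lost without HFHC replicate 1 or 3 or Chow replicate 7 or 9. For the 9 genes the same trend ran from -0.0679 (Lgr5) to 0.106 (Rhbg).

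No antagonist or further feedback gene passed among the 7 tested, where 6.67% of all tested genes did. Only 1 of the 7 had an unadjusted p under 0.05 in edgeR, against 22.2% of all tested genes. This gene was Sp5, a transcription factor gene induced by β-catenin. It stood at 2.00, 2.27 and 1.81 CPM in HFHC livers, against 1.06, 1.23 and 1.395 CPM in Chow livers. Every HFHC liver was above every Chow liver (0.72 ± 0.20, adjusted p = 0.0650), on 188 counts over the HFHC livers and 99 over the Chow livers. Such a separation was seen in 1 of the 7, against 13.5% of all tested genes. Sp5 passed with weighted limma-voom (adjusted p = 0.0461) and not with DESeq2.

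**Figure D4:**
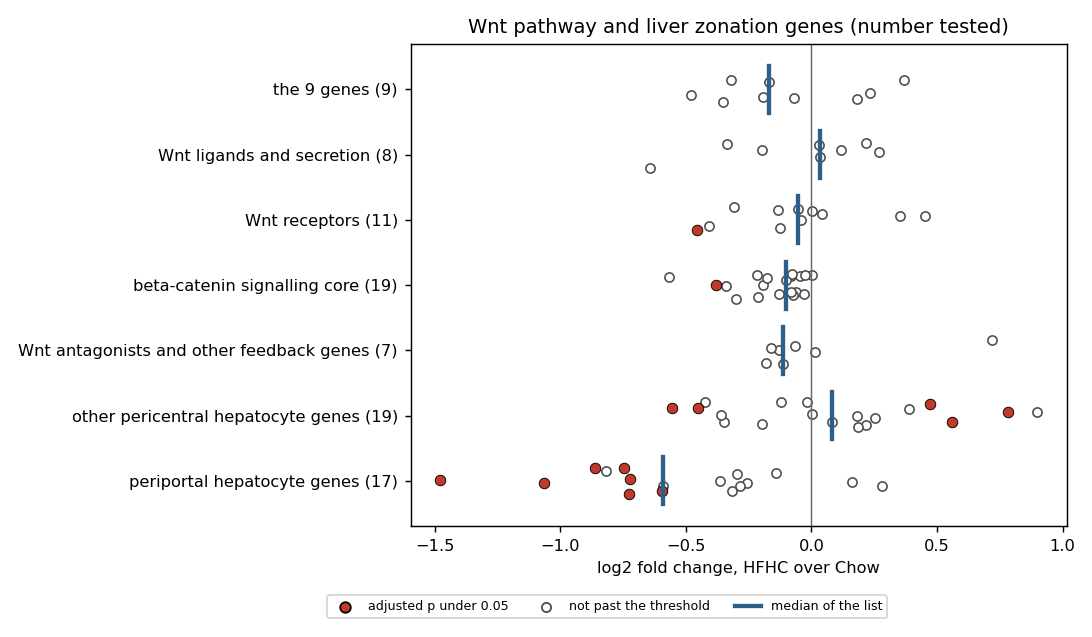
Log2 fold change of HFHC over Chow (horizontal axis) of each tested gene in the 9-gene set and in 6 lists of pathway and zonation genes (rows, with the number tested), filled where the adjusted p is under 0.05, with the median of each list as a bar. No gene of the top row is filled, the receptors and the signalling core hold 1 filled gene each on the lower side, and the periportal row is shifted to the lower side.

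Other genes of the pericentral zone, and those of the periportal zone, were read beside the 9. Glul, the glutamine synthetase gene of the hepatocytes around the central vein, stood at 1009, 1229 and 1041 CPM in HFHC livers, against 957, 868 and 926 CPM in Chow livers. Every HFHC liver was above every Chow liver, at a log2 difference of 0.25 ± 0.10 (adjusted p = 0.166). Among the 19 other pericentral genes, of which Glul is 1, 3 rose, 2 fell and the median was 0.08. Of all tested genes 3.38% passed as higher and 3.3% as lower. In 10 of the 19 the livers of the diets did not overlap, 6 higher and 4 lower in HFHC livers. That was so for 27.8% of all tested genes. Among the 3 that rose were the secreted protein gene Lect2 (0.56 ± 0.10) and the fatty aldehyde dehydrogenase gene Aldh3a2 (0.78 ± 0.15). The ribonuclease gene Rnase4 fell (-0.56 ± 0.10). The other gene that fell, named after its values were seen, was the cytochrome P450 gene Cyp1a2 (-0.45 ± 0.11, adjusted p = 0.0390). None of the 5 calls held without Chow replicate 7.

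Among 17 periportal genes, 7 fell and none rose with edgeR, and the median was -0.59. Of all tested genes 3.3% passed as lower and 3.38% as higher. In 14 of the 17 the livers of the diets did not overlap, 13 lower and 1 higher in HFHC livers. That was so for 27.8% of all tested genes. DESeq2 called 10 of the 17 lower and 1 higher, and weighted limma-voom 8 lower and 1 higher. Hsd17b13, a lipid droplet protein gene named after its values were seen, was higher in each HFHC liver (0.28 ± 0.08, adjusted p = 0.0816 with edgeR). The histidine-degrading enzyme gene Hal (-1.07 ± 0.10), the phospholyase gene Etnppl (-1.48 ± 0.16) and the glutaminase gene Gls2 (-0.86 ± 0.12) had the smallest p. Summed over the lists, the 19 pericentral genes came to 11235 to 12701 CPM in HFHC livers and 11242 to 12174 CPM in Chow livers. The 17 periportal genes came to 8656 to 9157 CPM in HFHC livers and 12808 to 14928 CPM in Chow livers (exact two-sided permutation p = 0.1, the smallest this design allows). In such sums the most abundant genes weigh most. Cyp2e1, the most abundant of the 19 pericentral genes, averaged 6303 CPM in HFHC livers and 5954 CPM in Chow livers. Cps1, the most abundant of the 17 periportal genes, averaged 2956 CPM in HFHC livers and 4961 CPM in Chow livers. Both were named after their values were seen. Oat, with its interval from -0.77 to -0.19, had the lowest estimate of the 9. Whether it differs from the other pericentral genes or from the periportal genes was not tested.

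Cells other than hepatocytes were read from the same libraries. The 6 cholangiocyte markers summed to 39.4 to 45.1 CPM in HFHC livers and 39.1 to 43.9 CPM in Chow livers. The 8 Kupffer cell markers summed to 237 to 290 CPM in HFHC livers and 206 to 240 CPM in Chow livers (exact two-sided permutation p = 0.2). No marker of these 2 lists passed with edgeR, DESeq2 or weighted limma-voom. At an unadjusted p under 0.05 in edgeR there were 0 of 5 tested cholangiocyte markers and 4 of 8 Kupffer cell markers. The share over all tested genes was 22.2%. Of the 4 Kupffer cell markers, Clec4f (0.30 ± 0.10), Cd5l (0.28 ± 0.11) and Adgre1 (0.25 ± 0.11) were higher in each HFHC liver and Cd163 (-0.22 ± 0.08) was lower in each. Over all tested genes 13.5% were higher in each HFHC liver and 14.3% lower in each. Of the 10 hepatocyte markers only Tat, the tyrosine aminotransferase gene, passed (-1.0 ± 0.15, adjusted p = 0.00673), where 6.67% of all tested genes did. An unadjusted p under 0.05 in edgeR was found for 3 of the 10, against 22.2% of all tested genes. In 5 of the 10 the livers of the diets did not overlap, 3 higher and 2 lower in HFHC livers, against 27.8% of all tested genes.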

How the data were processed

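The values are estimated counts for each gene and library, which the authors deposited as 1 table without normalization. Per the labels, total RNA was depleted of rRNA and made into TruSeq stranded libraries. The submitters' processing notes name STAR 2.7.3a, Partek 9 and the build mm10. How reads were counted, and whether by strand, is not stated in those sources.

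The members and gene lists were chosen with earlier results of these data known. Counts were rounded, genes were kept by filterByExpr (minimum count 10), and edgeR 4.0.16 with TMM factors and the quasi-likelihood F test compared the diets over 14896 genes in all 6 libraries, with a threshold of 0.05 on the Benjamini-Hochberg adjusted p. The SE is the log2 fold change divided by the square root of F, and 95% intervals use the test's degrees of freedom. No batch or pairing is labelled. Each library is labelled as a liver of its own, and the p-values cover only the spread among these livers. A count was worth 0.0318 to 0.0379 CPM. The floor of 3 counts came to between 0.0954 and 0.114 CPM, which covers counting error alone. No pair of libraries of 1 diet agreed within sampling noise (chi-square per degree of freedom 16.8 to 32.2).

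Of 165 listed genes besides the 9 members, 147 were found under their symbol and 1 under a synonym, and the other 17 were not analysed here. All 9 members are named. From each pathway or zone list up to 3 passing genes of the leading direction and 1 of the other were named by p, or the smallest p where none passed, with Glul, Ctnnb1, Wnt2, Wnt9b and Lgr4 always named. Passing cell markers were named too. A gene that this rule names among the pericentral genes is not reported here. Lrp6, Wif1 and the genes in the closing section were chosen after their values were seen. Coordinates, exon lengths and overlaps are from GENCODE M21. Deposited ends lie 1 base past it and were not used.

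Alternatives were other size factors, filters and tests (DESeq2 1.42.0, weighted limma-voom from limma 3.58.1, robust quasi-likelihood), the 10 most abundant genes left out, thinning to the smallest library, rounding down, other thresholds and each library left out. Added after the data were seen was a fit with each library's spline trend (5 degrees of freedom each) on GC content and length of the longest transcript taken out, known for 98.5% of tested genes. On simulated data of 14896 genes 36 of 67 genes given a 1.5-fold change passed, as did 62 of 67 given a 2-fold and 66 of 66 given a 4-fold change, and 9 of the 173 calls were false. The simulated spread followed the trend of spread on abundance. Genes that spread more widely, such as Tbx3 and Axin2, are therefore not covered by these shares. R 4.3.3 and Python 3.11.15 were used.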

Additional observations from a re-analysis of the deposited data

How the results depend on the processing

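No member passed in the reported fit, and 1 did (Oat) with DESeq2, weighted limma-voom, robust quasi-likelihood, the GC and length trend taken out or an adjusted p under 0.10. Leaving out 1 library gave 0 to 1. Over all genes 994 passed, against 1494 with weighted limma-voom, 282 at an adjusted p under 0.01, 1721 under 0.10, and 361 to 1080 with 1 library left out. Of the 994, 503 were higher and 491 lower, against 595 higher and 400 lower with upper-quartile size factors. Receptors passing went from 1 to 2 with DESeq2, weighted limma-voom or robust quasi-likelihood (0 to 1 with a library left out), and the signalling core from 1 to 2 with DESeq2 or robust quasi-likelihood, to 0 without the GC and length trend, and 0 to 1 with a library left out. Antagonists went from 0 to 1 without the count filter or with weighted limma-voom, periportal genes from 7, all lower, to 11 with DESeq2 (10 lower and 1 higher), and pericentral genes from 5 to between 0 and 6 with a library left out. Log2 fold changes reversed when a library was left out for Rnf43 (-0.36 to 0.10), Axin2 (-0.62 to 0.01), Tbx3 (-0.31 to 0.55), Wnt2 (-0.23 to 0.25) and Wnt9b (-0.06 to 0.21). They also reversed without the GC and length trend for Wnt2 (-0.05), Wnt9b (-0.01) and Slc1a2 (0.01), and for Wnt9b after thinning (-0.01). The cause was not tested. Rspo3, Lgr5, Znrf3, Nkd1, Rhbg and Oat kept their direction in every alternative run. No paired analysis was possible because no pairing of the mice between the diets is labelled. With 3 livers a diet, the intervals of Axin2 and Tbx3 reach past a 2-fold difference.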

Other observations

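Wif1, a secreted Wnt inhibitor below the count filter, had 9, 8 and 29 counts in HFHC livers, against 2, 1 and 0 counts in Chow livers. Without the filter it had a log2 fold change of 3.61 ± 0.88 (adjusted p = 0.0429 in edgeR's quasi-likelihood test). The highest value was that of HFHC replicate 3, and every HFHC liver was above every Chow liver.

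The profiles of Tbx3, Axin2 and Rnf43 across the livers were compared with those of 9788 other genes of at least 5 CPM on average, after the diet means of log2 (CPM + 0.5) had been taken off. Likeness was the root mean square of the differences over the 6 livers, given as a description of these libraries. Nearest to Tbx3 was Dusp6, a phosphatase gene of the ERK pathway, with 0.178 on the log2 scale. Dusp6 stood at 36.0, 56.9 and 27.2 CPM in HFHC livers, against 44.85, 25.1 and 34.5 CPM in Chow livers. The insulin receptor substrate gene Irs2 was the third with 0.227, at 14.1, 24.5 and 11.6 CPM in HFHC livers, against 35.8, 10.9 and 20.2 CPM in Chow livers. Arhgap32 was the second (0.214), Gm34667 the fourth (0.246) and Map3k13 the fifth (0.249). Axin2 came sixth from Tbx3 with 0.249. Nearest to Axin2 was the kinase gene Plk2 with 0.0976, at 10.6, 12.65 and 7.31 CPM in HFHC livers, against 14.4, 9.61 and 7.39 CPM in Chow livers. Ccn1 (0.151), Rnf144a (0.163) and Klf11 (0.165) came next, and Txnip, a thioredoxin-binding protein gene, was the fifth with 0.165. Nearest to Rnf43 was Rhpn2 with 0.0361, while Axin2 ranked 7352 and Tbx3 8823 by this distance from Rnf43. At the same distances (0.321 and 0.357) Rnf43 ranked 440 from Axin2 and 47 from Tbx3, so the rank depends on the gene it is taken from. The 5 nearest to Tbx3 and the 5 nearest to Axin2 did not pass in the comparison of the diets. Nor did Rhpn2, Atxn1 and Cnst of the 5 nearest to Rnf43. For these genes the adjusted p ran from 0.188 to 0.970 in edgeR's quasi-likelihood test. Among the 5 nearest to Rnf43, 2010003K11Rik (2.25 ± 0.22, adjusted p = 0.000716) and Anxa2 (0.71 ± 0.18, adjusted p = 0.0476) did pass.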
